A study of Mus musculus with 7 samples.

Results

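Transcripts of 10 genes that store, coat and break down the triglyceride of heart muscle were examined in mice under left ventricular pressure overload with or without empagliflozin (EMPA). The genes were matched by symbol in the deposited gene table and were Pnpla2, Lipe, Plin2, Plin4, Plin5, Dgat1, Dgat2, Lpl, Angptl4 and G0s2. All 10 were found once among the 53460 genes of the table. RNA sequencing had been carried out on hearts of C57BL/6 mice (C57BL/6Ncr in the treatment notes, and C57BL/6NCrSlc males in the study's text) aged 14 weeks after transverse aortic constriction (TAC), surgery that tightens the aortic arch and loads the left ventricle. The TAC group (n = 3 mice) received no drug, and the TAC + EMPA group (n = 4 mice) received EMPA, which blocks the renal sodium-glucose cotransporter SGLT2, in its chow for 5 days from 2 weeks after TAC. The labels put the operation at 12 weeks of age, whereas the study's text puts it earlier. Both groups carried the operation, and hearts without it were not analysed here. Each value is an FPKM, fragments scaled to transcript length and to library size, so levels may be set side by side between genes.

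The heart takes up fatty acids from the blood, burns most of them and keeps a small, fast-turning store as triglyceride in lipid droplets. The droplet surface is coated by perilipins, which decide how far lipases reach the fat inside. Diacylglycerol acyltransferases fill the droplet, adipose triglyceride lipase and the lipases after it empty it, and lipoprotein lipase at the capillary wall brings in fatty acids from circulating lipoproteins.

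Of the TAC libraries, replicate 3 stood apart from replicates 1 and 2. On the first principal component, which held 46.8% of the variance, TAC replicates 1 and 2 had scores of -45.7 and -56.0, TAC replicate 3 had 16.1, and the TAC + EMPA libraries had 18.9 to 24.3. TAC replicate 3 thus lay near the TAC + EMPA libraries on this component. For 70.3% of all genes tested, TAC replicate 3 was also the closest TAC library to the mean of TAC + EMPA. Whether its label is right could not be checked from these values, and every TAC mean and difference given here rests on that label. The summed FPKM of 10 endothelial markers was 661, 770 and 376 in TAC replicates 1 to 3 and 344 to 364 in the TAC + EMPA libraries. In TAC + EMPA replicate 4 the summed FPKM of 7 skeletal muscle markers was 345, against 4.61 to 12.5 in the other libraries, and that of 8 hepatocyte markers was 76.6, against 3.14 to 14.0. Cardiomyocyte markers were abundant in every library, with a summed FPKM of 66377 to 84282, although Myh6 is listed at 0 in TAC + EMPA replicate 1. Several of the genes studied here are also strongly expressed in fat. The defining adipocyte markers were at or near 0, with Adipoq at 0 to 0.068, Lep at 0 to 0.012 and Plin1 at 0 to 0.128, and 6 of the 7 markers stayed under 1 in every library. Their summed level was nevertheless 0.0616 to 0.200 in TAC and 0.326 to 1.54 in TAC + EMPA. Most of the highest sum, that of TAC + EMPA replicate 4, came from Pck1. It was at 1.17 there and at 0.0267 to 0.276 in the other TAC + EMPA libraries. In bulk tissue, fewer cells of a type and less RNA per cell cannot be told apart. Relative depth, read from the steps between low FPKM values of single-exon genes, was 1 to 2.24, with TAC replicate 1 and TAC + EMPA replicate 1 the deepest.

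With EMPA, the level of Pnpla2, Plin4, Plin5, Dgat2 and Lpl was higher in each of the 4 libraries than in any of the 3 TAC libraries, and the level of G0s2 was lower in each of them. These transcripts encode the lipase of the first lipolytic step, 2 droplet coats, an enzyme of triglyceride synthesis, the lipase of the capillary wall and an inhibitor of the first-step lipase. Mean FPKM in TAC + EMPA was 1.86 times that in TAC for Plin4, 1.50 times for Dgat2, 1.38 times for Pnpla2 and for Lpl, 1.35 times for Plin5 and 0.74 times for G0s2. For Lipe, Plin2, Dgat1 and Angptl4 the groups overlapped. Groups without overlap, TAC + EMPA higher, were found for 5 of the 10 genes and for 11.5% of all 12391 genes tested; those with TAC + EMPA lower were found for 1 of the 10 and for 10.7% of all genes. None of the 10 passed an adjusted p of 0.05 in limma in the fit of all 7 libraries, nor did any other gene (0.0% higher and 0.0% lower, smallest adjusted p = 0.115). At an unadjusted p under 0.05, limma placed 5 of the 10 higher and 1 lower, against 19.0% and 14.7% of all genes.

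**Figure D1:**
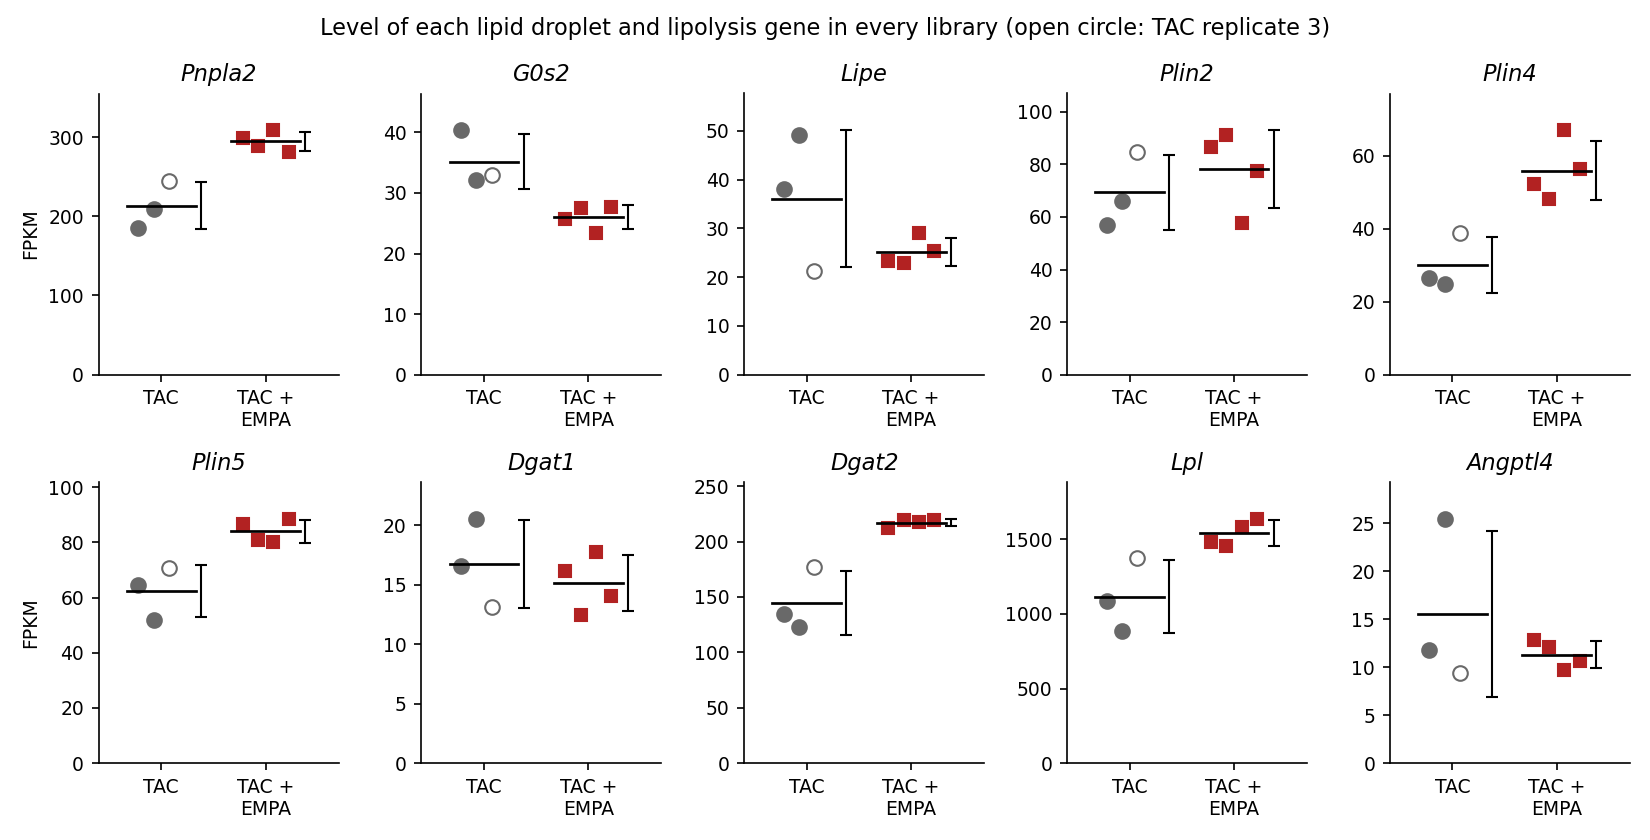
FPKM of the 10 genes in each library, with TAC as circles (TAC replicate 3 open) and TAC + EMPA as squares. Horizontal lines are group means and bars are SD (n = 3 and n = 4), and every axis starts at 0. In Pnpla2, Plin4, Plin5, Dgat2 and Lpl all squares lie above all circles, in G0s2 all lie below, and the open circle lies nearest to the squares in Pnpla2, Plin4, Plin5, Dgat2 and Lpl.

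Pnpla2 (ENSMUSG00000025509, chromosome 7, 141455198 to 141460743, plus strand, GRCm38) encodes adipose triglyceride lipase (ATGL), which cuts the first fatty acid from triglyceride. Its FPKM was 186, 209 and 245 in the TAC libraries and 299, 289, 309 and 281 in the TAC + EMPA libraries. The highest TAC library, replicate 3, lay below the lowest TAC + EMPA library. The group values were 213 ± 29.9 (SD, n = 3) and 294 ± 12.2 (SD, n = 4), a log2 difference of 0.47 with a standard error of 0.12 and a 95% interval of 0.20 to 0.75. The limma adjusted p was 0.115, and the exact two-sided permutation p was 0.0286, the smallest that the 35 regroupings of the libraries can give. That p is unadjusted and arises only where the groups do not overlap, so it adds little to the lack of overlap. Over all genes, 11.5% were without overlap and higher, and 10.7% without overlap and lower.

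G0s2 (ENSMUSG00000009633, chromosome 1, 193272161 to 193273217, minus strand) encodes a small protein that binds ATGL and blocks it. Its FPKM was 40.4, 32.2 and 33.0 in TAC and 25.6, 27.5, 23.4 and 27.6 in TAC + EMPA. Here TAC replicate 3 was near TAC replicate 2, and every TAC + EMPA library was lower. The log2 difference was -0.42 with a standard error of 0.12 and a 95% interval of -0.69 to -0.14 (limma adjusted p = 0.115, exact permutation p = 0.0286). G0s2 has 1 annotated transcript of 871 bases, from which its FPKM corresponds to about 424 to 1231 fragments per library. After a correction for transcript length the log2 difference was -0.24 and the groups overlapped. The gene lies inside Lamb3, which is on the other strand and shares no exon base with it.

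The transcripts of ATGL and its inhibitor differed in opposite directions. By arithmetic, the log2 difference in their ratio is then larger than that of ATGL alone, and it is not a separate result. The ratio of Pnpla2 to G0s2 FPKM within a library was 4.60, 6.50 and 7.44 in TAC and 10.2 to 13.2 in TAC + EMPA. The mean log2 ratio was 2.60 in TAC and 3.50 in TAC + EMPA, and the difference of 0.90 stayed between 0.70 and 1.05 when any 1 library was left out. The ratio is a description and was not tested. Abhd5, the activating partner of ATGL also called CGI-58, had an FPKM of 14.9 and 13.8 in TAC replicates 1 and 2, 29.1 in TAC replicate 3, and 27.4 to 41.0 in TAC + EMPA. Thus TAC replicate 3 lay inside the TAC + EMPA range for the activator, but outside it for ATGL and for the inhibitor (Abhd5 log2 difference 0.83 with a standard error of 0.26, limma adjusted p = 0.117).

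The transcripts of the later steps gave mixed pictures. Lipe (ENSMUSG00000003123, chromosome 7, 25379527 to 25398710, minus strand) encodes hormone-sensitive lipase, which acts on diacylglycerol. Its FPKM was 38.0, 49.1 and 21.2 in TAC and 23.4, 22.8, 29.1 and 25.3 in TAC + EMPA. TAC replicates 1 and 2 were the highest libraries and TAC replicate 3 the lowest of all 7. The log2 difference was -0.43 with a 95% interval of -1.04 to 0.18 (limma adjusted p = 0.261, exact permutation p = 0.257). It was -0.76 without TAC replicate 3 (limma adjusted p = 0.0043), -0.18 without TAC replicate 2 and 0.23 with TAC replicate 3 as the only TAC library. An antisense gene, 4732471J01Rik, shares 918 exon bases with Lipe but was at 0.210 to 0.590 FPKM. Mgll, the lipase that splits the last monoacylglycerol, was at 88.3, 122 and 53.2 in TAC and 42.7 to 53.2 in TAC + EMPA. As with Lipe, TAC replicates 1 and 2 were high and TAC replicate 3 was at the TAC + EMPA level (log2 difference -0.85, limma adjusted p = 0.116), and the endothelial markers given above moved the same way, a part in the result that was not tested. Ddhd2, a triglyceride hydrolase known from brain, was at 3.38, 3.88 and 4.01 in TAC and 4.90 to 5.69 in TAC + EMPA, without overlap. Abhd6, another monoacylglycerol lipase, was at 3.32, 3.56 and 3.46 in TAC and 3.78 to 4.89 in TAC + EMPA, also without overlap (log2 difference 0.19, limma adjusted p = 0.228). Of the 6 genes listed as cofactors and later steps of lipolysis, 2 (Abhd5 and Ddhd2) were higher and 1 (Mgll) was lower with an unadjusted p under 0.05 (19.0% and 14.7% of all genes), and the median log2 difference was 0.05.

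The perilipins gave different pictures within a single family. Plin4 (ENSMUSG00000002831, chromosome 17, 56100591 to 56109803) and Plin5 (ENSMUSG00000011305, chromosome 17, 56111601 to 56117596) are neighbours on the minus strand, 1797 bases apart. Plin2 (ENSMUSG00000028494, minus strand) lies on chromosome 4, 86648386 to 86670060. The 250 bases before the RefSeq start of each (GRCm38.p6, minus strand, written 5′ to 3′ on the strand of the gene) are shown because Plin4 and Plin5 varied together (r = 0.90 over 7 libraries), whereas Plin2 had an r of 0.28 with Plin4 and 0.45 with Plin5. The likeness was not particular to these neighbours. On other chromosomes, Plin4 had a higher r with Dgat2 (0.96), Pnpla2 (0.95) and Lpl (0.95). Plin5 had a higher r with Lpl (0.96) and Dgat2 (0.95) and a lower r with Pnpla2 (0.83). The windows are chr17:56109783-56110032 for Plin4, chr17:56117549-56117798 for Plin5 (the upstream start of those listed) and chr4:86670060-86670309 for Plin2. Capitals mark the hexamer AGGTCA or its reverse complement TGACCT, the letters to which nuclear receptors such as the PPARs and RXRs bind in pairs.
Plin4: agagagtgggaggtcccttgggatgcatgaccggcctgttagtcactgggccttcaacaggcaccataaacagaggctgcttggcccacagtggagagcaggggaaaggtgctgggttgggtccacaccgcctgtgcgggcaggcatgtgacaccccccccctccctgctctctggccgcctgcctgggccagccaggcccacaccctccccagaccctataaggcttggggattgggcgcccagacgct
Plin5: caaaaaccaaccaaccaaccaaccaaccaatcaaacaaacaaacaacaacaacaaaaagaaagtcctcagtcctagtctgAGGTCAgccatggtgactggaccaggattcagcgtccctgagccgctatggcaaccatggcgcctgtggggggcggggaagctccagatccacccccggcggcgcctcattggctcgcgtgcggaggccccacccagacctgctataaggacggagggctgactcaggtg
Plin2: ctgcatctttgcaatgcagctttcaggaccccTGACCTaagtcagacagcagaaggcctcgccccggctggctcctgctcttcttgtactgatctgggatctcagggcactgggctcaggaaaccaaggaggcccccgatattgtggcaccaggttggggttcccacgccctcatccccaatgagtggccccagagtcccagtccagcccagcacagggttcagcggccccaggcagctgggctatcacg
The hexamer was found once for Plin5, 170 bases before the start, once for Plin2, 218 bases before the start, and not in the Plin4 window. The window of the other Plin5 start listed, chr17:56117299-56117548, did not hold it. The hexamer occurred on either strand in 14.0% of all 32851 promoter windows of the same length. A direct repeat of it with 1 base between the copies, the arrangement of a PPAR element, was in none of these windows and in 0.0335% of all. Windows were found for 6 of the 10 genes, and those of Pnpla2, Lipe and G0s2 held no hexamer. Matches are a description of the letters, and binding was not measured.

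Plin4 showed the largest log2 difference of the 10 genes. It encodes a perilipin of fat and muscle that covers small, new droplets. Its FPKM was 26.6, 24.9 and 38.9 in TAC and 52.3, 48.0, 67.0 and 56.3 in TAC + EMPA. TAC replicate 3 lay between the other TAC libraries and the TAC + EMPA libraries, which had an SD of 8.12 around a mean of 55.9. Between the groups the log2 difference was 0.89 with a standard error of 0.18 and a 95% interval of 0.46 to 1.32 (limma adjusted p = 0.115, exact permutation p = 0.0286). The 3′ end of Plin4 shares 17 bases with Hdgfl2 on the other strand, whose FPKM of 20.5 to 39.9 was not higher in TAC + EMPA.

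Plin5 encodes the perilipin of oxidative tissues, which holds ATGL and CGI-58 at the droplet and ties the droplet to mitochondria. Its FPKM was 64.6, 51.9 and 70.6 in TAC and 86.6, 81.1, 80.1 and 88.6 in TAC + EMPA. All 4 TAC + EMPA libraries were higher, by a log2 difference of 0.44 with a standard error of 0.12 and a 95% interval of 0.14 to 0.73 (limma adjusted p = 0.115, exact permutation p = 0.0286). The ratio of Plin4 to Plin5 was 0.411 to 0.551 in TAC and 0.592 to 0.836 in TAC + EMPA, so the groups did not overlap in the ratio either.

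Plin2 encodes the perilipin found on droplets of nearly all cells. Its FPKM was 57.1, 66.1 and 84.9 in TAC and 86.7, 91.1, 57.6 and 77.3 in TAC + EMPA. Replicate 3 of TAC + EMPA, the highest library for Plin4, was the lowest of its group for Plin2 and near the lowest TAC library. Its log2 difference was 0.17 with a 95% interval of -0.30 to 0.63 (limma adjusted p = 0.552, exact permutation p = 0.429). It was 0.04 without TAC replicate 1, 0.32 without TAC replicate 3, 0.11 and 0.09 without TAC + EMPA replicates 1 and 2 and 0.31 without TAC + EMPA replicate 3. The interval over all 7 libraries spans both a lower level and one as high as the estimate for Dgat2.

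Plin3, the remaining perilipin of the heart, which moves from cytosol to droplets, was at 52.3, 53.3 and 74.0 in TAC and 84.2 to 95.2 in TAC + EMPA, a log2 difference of 0.59 with a standard error of 0.14 (limma adjusted p = 0.115). Plin1 to Plin5 together summed to 201, 196 and 268 FPKM in TAC and 289 to 321 in TAC + EMPA. The total was thus higher in each TAC + EMPA library. Within the total, the share of Plin4 was 12.7% to 14.5% in TAC and 15.3% to 23.2% in TAC + EMPA, whereas the share of Plin5 overlapped, at 26.3% to 32.2% and 25.8% to 28.9%.

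**Figure D2:**
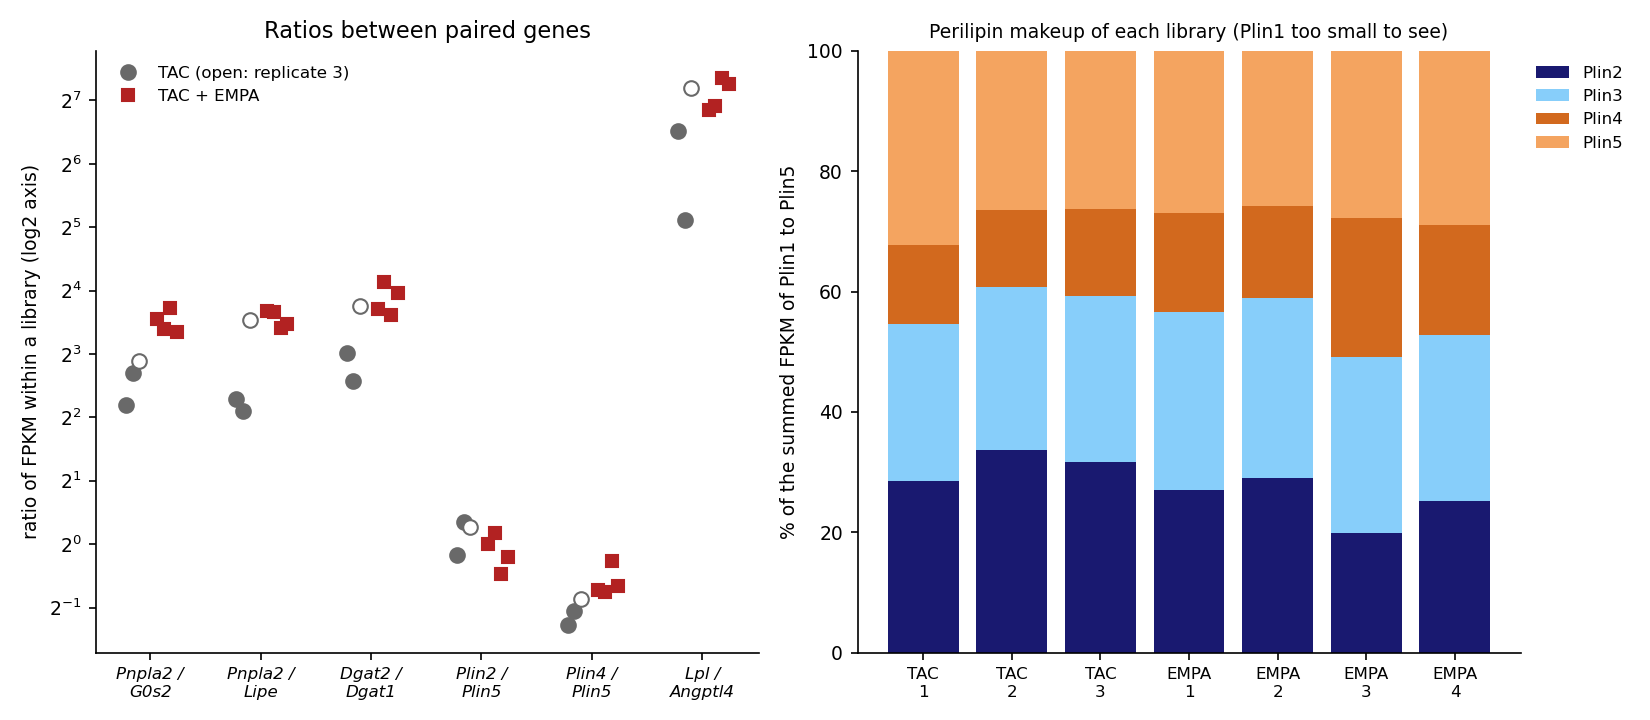
Left, ratio of FPKM between paired genes within each library on a log2 axis, with TAC as circles (TAC replicate 3 open) and TAC + EMPA as squares. Right, share in percent of each perilipin in the summed FPKM of Plin1 to Plin5 for each library. The groups do not overlap for Pnpla2 to G0s2 (4.60 to 7.44 and 10.2 to 13.2) and for Plin4 to Plin5, while TAC replicate 3 lies among the TAC + EMPA libraries for Pnpla2 to Lipe, Dgat2 to Dgat1 and Lpl to Angptl4.

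The last step of triglyceride synthesis is carried out by a pair of enzymes unrelated in sequence, and their transcripts differed. Dgat2 (ENSMUSG00000030747, chromosome 7, 99153658 to 99182719, minus strand) was at 134, 123 and 177 FPKM in TAC and 212, 220, 218 and 219 in TAC + EMPA. The TAC + EMPA libraries were nearly level, with an SD of 3.47 against 28.7 in TAC, and all lay above TAC replicate 3. This gave a log2 difference of 0.60 with a standard error of 0.14 and a 95% interval of 0.28 to 0.92 (limma adjusted p = 0.115, exact permutation p = 0.0286). Dgat1 (ENSMUSG00000022555, chromosome 15, 76502015 to 76511953, minus strand) was at 16.6, 20.5 and 13.1 in TAC and 16.2, 12.4, 17.8 and 14.0 in TAC + EMPA. The groups overlapped, and the log2 difference was -0.13 with a 95% interval of -0.54 to 0.28 (limma adjusted p = 0.600, exact permutation p = 0.543). It was -0.28 without TAC replicate 3, -0.05 without TAC + EMPA replicate 2 and -0.21 without TAC + EMPA replicate 3, and the sign turned, to 0.02, without TAC replicate 2. Dgat2 exceeded Dgat1 by 5.97, 8.10 and 13.5 times in TAC replicates 2, 1 and 3 and by 12.2 to 17.7 times in TAC + EMPA.

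Lpl (ENSMUSG00000015568, chromosome 8, 68880491 to 68907448, plus strand) encodes lipoprotein lipase, made by cardiomyocytes and carried to the capillary wall, and was the most abundant of the 10 transcripts. Its FPKM was 1085, 885 and 1373 in TAC and 1484, 1453, 1585 and 1638 in TAC + EMPA. The gap between TAC replicate 3 and the lowest TAC + EMPA library was small, and the other TAC libraries lay well below. The log2 difference was 0.49 with a standard error of 0.15 and a 95% interval of 0.13 to 0.85 (limma adjusted p = 0.117, exact permutation p = 0.0286). With TAC replicate 3 as the only TAC library it was 0.16.

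Angptl4 (ENSMUSG00000002289, chromosome 17, 33773750 to 33781830, minus strand) encodes a secreted inhibitor of lipoprotein lipase. Its FPKM was 11.8, 25.5 and 9.39 in TAC and 12.9, 12.1, 9.70 and 10.6 in TAC + EMPA. Only TAC replicate 2 lay outside the TAC + EMPA range by a wide margin, and TAC replicate 3 lay slightly below it. The log2 difference was -0.31 with a 95% interval of -1.02 to 0.39 (limma adjusted p = 0.466, exact permutation p = 0.600), and it was 0.09 without TAC replicate 2 and -0.59 without TAC replicate 3. The ratio of Lpl to Angptl4 was 92.0, 34.7 and 146 in TAC and 115 to 163 in TAC + EMPA.

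Gpihbp1, the endothelial protein that carries lipoprotein lipase across the capillary cell, was at 315, 392 and 144 FPKM in TAC and 151 to 163 in TAC + EMPA (log2 difference -0.74, limma adjusted p = 0.144). It was high in the same libraries as the endothelial markers, of which Pecam1 was at 84.2, 99.3 and 58.8 in TAC and 53.1 to 57.4 in TAC + EMPA. Their part in the result was not tested. Lmf1, which is needed for the lipase to fold, overlapped between the groups at 16.2 to 20.7 and 17.9 to 20.5. Vldlr, a receptor that takes up triglyceride-rich lipoproteins, was at 20.6, 19.5 and 66.1 in TAC and 65.7 to 78.0 in TAC + EMPA. Among the 5 tested genes of lipase handling in the vessel, Vldlr was the 1 higher gene and Gpihbp1 the 1 lower gene with an unadjusted p under 0.05 (19.0% and 14.7% of all genes), and in both TAC replicate 3 was at or near the level of the TAC + EMPA libraries.

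The size of these differences depended on TAC replicate 3. Without it, limma at an adjusted p under 0.05 called 5 of the 10 genes higher, Pnpla2, Plin4, Plin5, Dgat2 and Lpl, and 2 lower, G0s2 and Lipe. It also called 29.7% of all genes higher and 23.7% lower, so calls were frequent throughout the table. Plin4 then had a log2 difference of 1.08, Dgat2 of 0.75, Lpl of 0.65, Pnpla2 of 0.58, Plin5 of 0.53, G0s2 of -0.46 and Lipe of -0.76. With TAC replicate 3 as the only TAC library, whose spread was assumed to be that of the TAC + EMPA group, the differences shrank to 0.50 for Plin4, 0.29 for Dgat2, 0.26 for Pnpla2, 0.25 for Plin5, 0.16 for Lpl and -0.33 for G0s2. These 6 kept their sign against each TAC library, which follows from the lack of overlap between their groups. Lipe, Plin2, Dgat1 and Angptl4 changed sign. For 7 of the 10 genes, and for 70.3% of all genes tested, TAC replicate 3 was the closest TAC library to the mean of TAC + EMPA. G0s2 belonged to the exceptions, with log2 differences of -0.62, -0.30 and -0.33 against TAC replicates 1 to 3. Without TAC + EMPA replicate 4, the library with skeletal muscle and hepatocyte transcripts, Pnpla2, Plin4, Plin5, Dgat2 and Lpl had log2 differences of 0.41 to 0.88 and G0s2 of -0.44. The median log2 difference of the 10 genes was 0.30, against 0.03 over all genes tested.

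**Figure D3:**
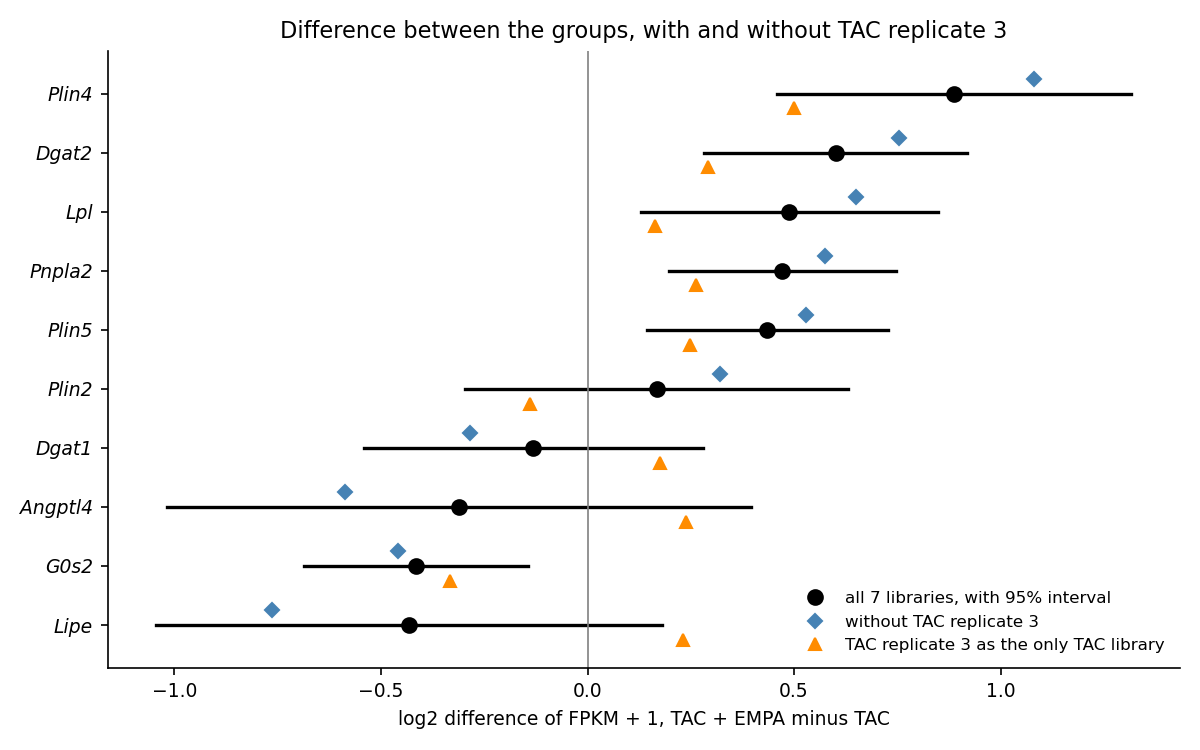
Log2 difference of FPKM + 1 between TAC + EMPA and TAC for each gene, with dots and 95% intervals from limma on all 7 libraries, diamonds without TAC replicate 3 and triangles with TAC replicate 3 as the only TAC library. For Plin4, Dgat2, Lpl, Pnpla2, Plin5 and G0s2 all 3 symbols lie on the same side of 0, and for Lipe, Angptl4, Dgat1 and Plin2 the triangle lies on the other side.

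By level, Lpl was followed by Pnpla2 and Dgat2 in both groups, and the ranges of these 3 did not overlap with each other or with those of the other genes. In TAC, the ranges of Plin2 and Plin5 overlapped, as did those of Lipe, G0s2 and Plin4 in that order and those of Dgat1 and Angptl4. The wide TAC range of Angptl4, 9.39 to 25.5, also overlapped with those of Lipe and Plin4, at 21.2 to 49.1 and 24.9 to 38.9. In TAC + EMPA, Plin4 at 55.9 ± 8.12 (SD, n = 4) stood above G0s2 at 26.0 ± 1.98 and Lipe at 25.2 ± 2.86 with no overlap, whereas in TAC the 3 had means of 30.1 to 36.1. Plin5 and Plin2 overlapped in both groups, and Plin2 and Plin4 overlapped in TAC + EMPA.

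Across the 7 libraries, Pnpla2, Plin4, Plin5, Dgat2 and Lpl varied together, with Pearson correlations of log2 values of 0.825 and above. Correlations with Pnpla2 were -0.95 for G0s2, -0.70 for Lipe and 0.47 for Plin2. The libraries share the 2 groups and the distance of TAC replicate 3, so these values only describe likeness. The genes most like Pnpla2 were Zbtb20, Lmod2 and Pdk4 (r of 0.997, 0.995 and 0.995), and those most like Dgat2 were Lsm14b, Bnip3 and Slc35f5 (0.997, 0.997 and 0.996). Lpl was most like Insr, Tmem252 and Cnot1 (0.999, 0.997 and 0.995), Plin4 was most like Usp22, Zfp839 and Tbc1d12 (0.995, 0.994 and 0.992), and Plin5 was most like Glod4, Dazap2 and Zdhhc21 (0.986, 0.984 and 0.982). G0s2 was most like Kcne4, Capg and Tor1a (0.990, 0.984 and 0.980) and Lipe was most like Pde4c, St6galnac2 and Plekhg5 (0.995, 0.994 and 0.994). Angptl4 was most like Uhrf2, Trex1 and Fdxr (0.983, 0.981 and 0.980), Gnpda2 and Fam208b were among the genes most like Plin2 (0.976 and 0.962), and Dgat1 was most like Nup188, Tsen54 and Usp21 (0.971, 0.967 and 0.960).

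Of 68 other genes listed for lipid droplets, triglyceride and fatty acid handling and PPAR control, 57 could be tested, and none passed the adjusted threshold in limma (smallest adjusted p = 0.115). At an unadjusted p under 0.05, 21 of the 57 were higher and 8 lower, against 19.0% and 14.7% of all genes. The groups did not overlap for 12 higher and 5 lower genes, against 11.5% and 10.7% of all genes. Among 7 tested coat and assembly genes, Plin3 and Cideb were higher without overlap, and Bscl2 (seipin, which shapes new droplets) and Fitm1 (a fat storage-inducing protein of muscle) were lower without overlap. Fitm1 was at 113, 87.4 and 96.5 FPKM in TAC and 75.1 to 86.4 in TAC + EMPA. Its paralog Fitm2 was at 27.2, 23.5 and 45.3 in TAC and 43.8 to 50.8 in TAC + EMPA, and so TAC replicate 3 was inside the range of the other group. The median log2 difference of this list was 0.02.

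Of 9 tested genes that build diacylglycerol for the DGAT enzymes, 5 were higher at an unadjusted p under 0.05 and none was lower (19.0% and 14.7% of all genes), with a median log2 difference of 0.31. Lpin1, the phosphatidate phosphatase that makes diacylglycerol, was at 11.9, 9.84 and 25.6 FPKM in TAC and 28.7 to 32.1 in TAC + EMPA. Gpat4, which adds the first acyl chain to glycerol phosphate, was at 8.81, 9.18 and 18.8 in TAC and 20.7 to 22.6 in TAC + EMPA. Both were without overlap, and in both TAC replicate 3 came close to the TAC + EMPA libraries. Gpam, the mitochondrial enzyme of the same step as Gpat4, was at 5.23 and 4.99 in TAC replicates 1 and 2, 56.1 in TAC replicate 3 and 48.0 to 54.2 in TAC + EMPA. Here TAC replicate 3 was the highest library of all, which sets Gpam apart from Dgat2, for which that library stayed below every TAC + EMPA library.

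**Figure D4:**
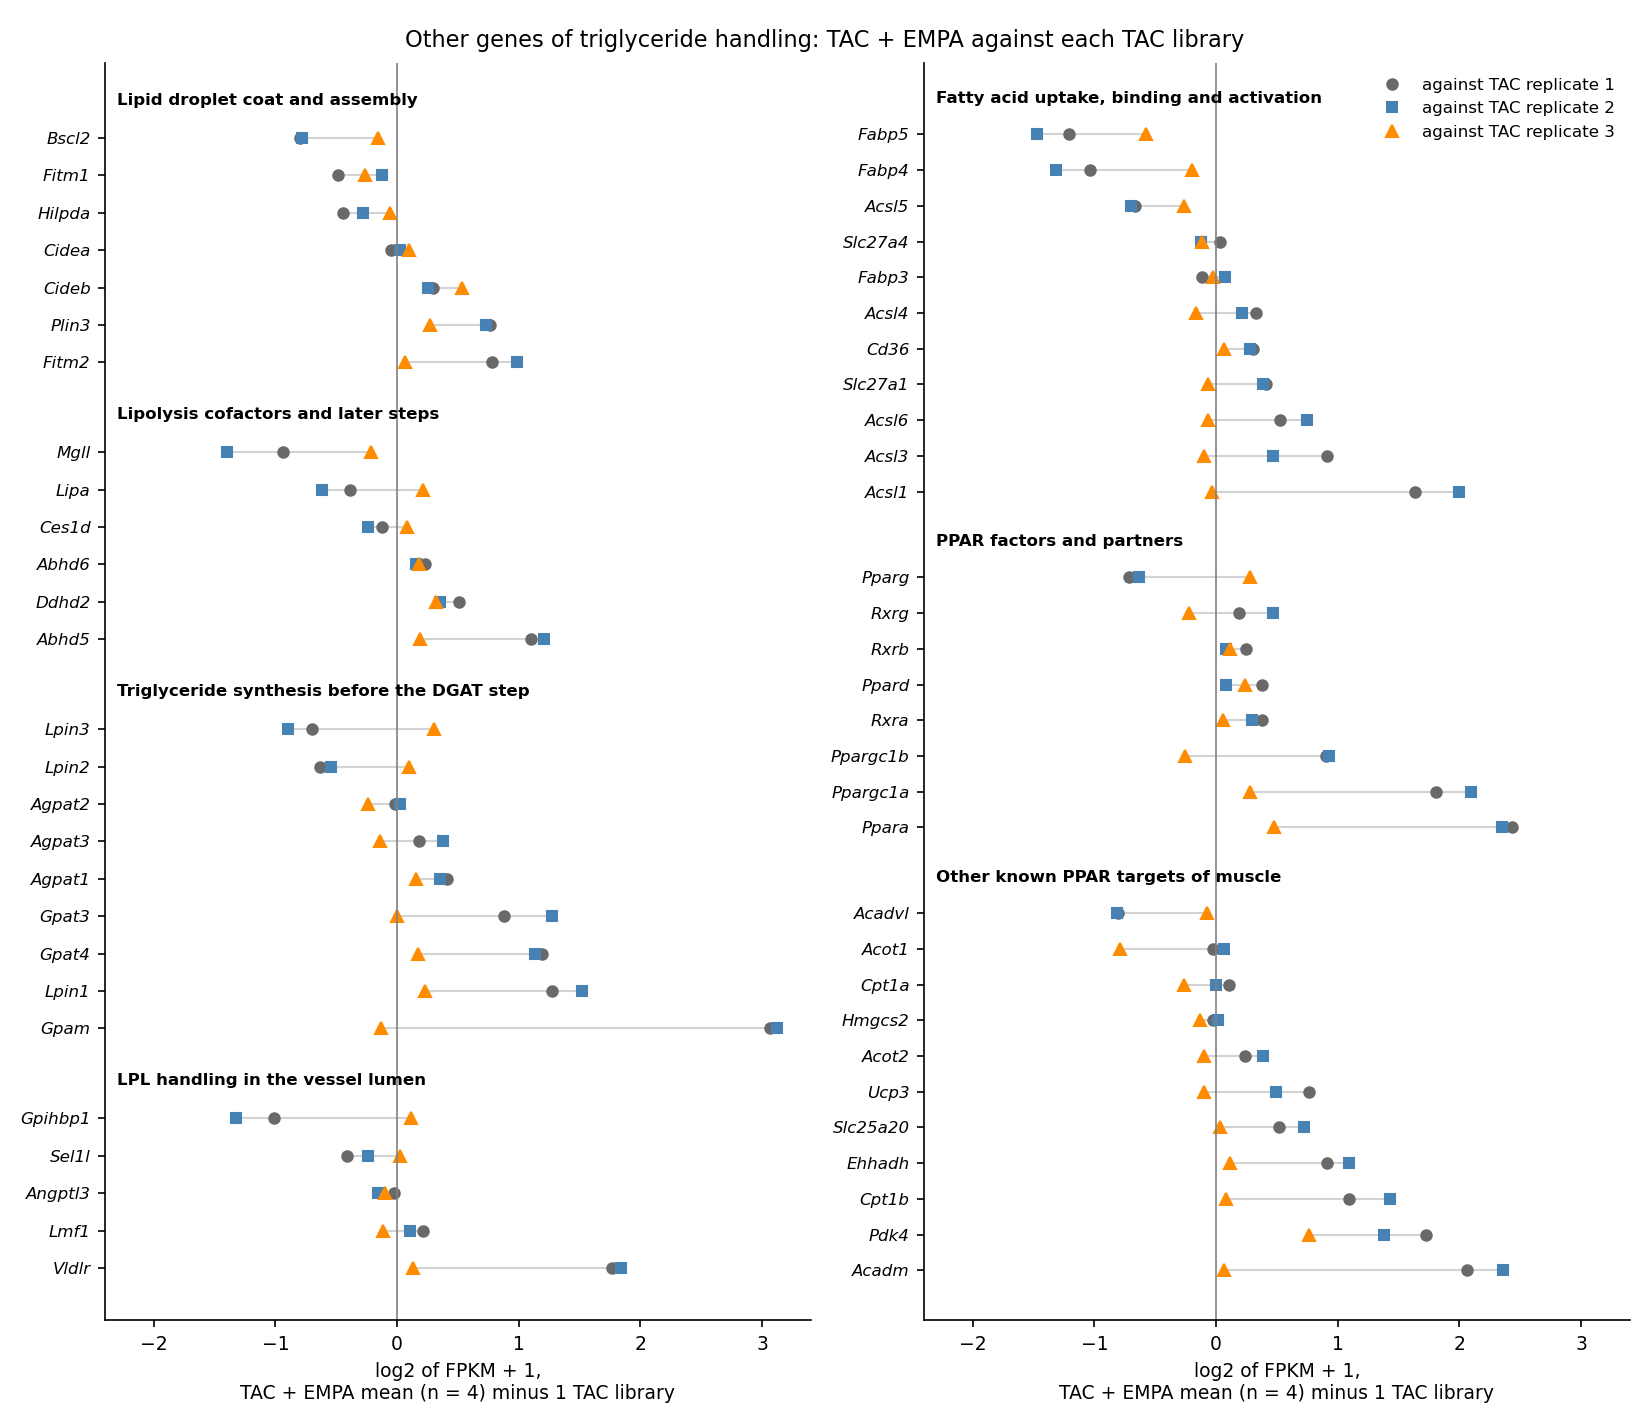
Log2 of FPKM + 1 of the TAC + EMPA mean (n = 4) minus that of TAC replicate 1 (circles), 2 (squares) and 3 (triangles) for the 57 tested genes of 7 lists. Values right of 0 are higher in TAC + EMPA. Triangles lie near 0 for many genes whose circles and squares lie far from it, such as Gpam, Vldlr, Acsl1 and Acadm, while for Plin3, Ddhd2 and Pdk4 all 3 symbols lie right of 0.

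Genes that control this pathway were also read. Of 8 PPAR factors and partners, 4 were higher at an unadjusted p under 0.05 and none was lower (19.0% and 14.7% of all genes), with a median log2 difference of 0.24. Ppara, the nuclear receptor of fatty acid use in heart, was at 1.44, 1.58 and 8.49 FPKM in TAC and 9.54 to 16.3 in TAC + EMPA, and its coactivator Ppargc1a was at 5.12, 4.01 and 16.7 and at 17.2 to 28.7. Neither overlapped, although TAC replicate 3 was far above the other TAC libraries in both. Ppard was at 6.55, 8.27 and 7.34 in TAC and 8.43 to 9.43 in TAC + EMPA, and here TAC replicate 2 lay nearest. Pdk4, a PPAR target that turns the heart from glucose to fatty acids, was at 148, 187 and 288 in TAC and 460 to 529 in TAC + EMPA, a log2 difference of 1.29 with a standard error of 0.21 (limma adjusted p = 0.115).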

How the data were processed

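Cardiac RNA of 3 TAC mice and 4 TAC + EMPA mice was sequenced from stranded libraries of polyadenylated RNA. Per the labels and the submitters' processing notes, the authors mapped reads to GRCm38 (mm10) with TopHat2 2.0.13 and deposited FPKM from Cuffdiff (Cufflinks 2.2.1), 1 value for each gene in each library. FPKM divides fragments by transcript length and library size, so a change in a few abundant transcripts shifts all others. Whether strand was used in counting is not given in the sources used here. Counts were not used here, total depth is unknown, and no count model was fitted. The study's text names 4 libraries, and the labels, which were followed, give 7. The deposited comparison columns (group means, fold changes, p-values and q-values) and the tables of enriched terms hold the authors' own findings and were not used. No column belonged to other samples (0).

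Groups and replicates came from the labels. Values were taken as log2(FPKM + 1), the 12391 genes whose FPKM averaged at least 1 entered the fit, and limma 3.58.1 (R 4.3.3) compared TAC + EMPA with TAC (trended prior variance, two-sided, Benjamini-Hochberg over all genes kept, threshold 0.05), with 95% intervals. Differences are on the log2(FPKM + 1) scale, which understates those of low genes. Single genes were also tested by exact permutation, without adjustment. P-values measure the spread between these mice. The fit was tested on simulated data with independent noise for each gene. No simulated library departed across many genes as TAC replicate 3 does, so that test does not cover this feature. The 10 genes, the pathway lists and the marker lists were chosen with earlier results of these data known. Beside the 10 genes, up to 3 genes per list and direction by moderated t, genes at an unadjusted p under 0.05, partners of the 10 genes and the 3 genes most correlated with each were eligible to be named. The result of 1 gene is not reported here. Positions are from GENCODE on GRCm38, and promoters are from RefSeq. Python 3.11.15, pandas 2.3.3 and matplotlib 3.10.9 were used for tables and figures. Alternatives covered the pseudocount, the filter, quantile normalization, median centring, transcript length, the variance prior, the replicate number as a block and each library left out. Use of TAC replicate 3 as the only TAC library, and removal of both that library and TAC + EMPA replicate 4, were chosen after seeing the data.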

Additional observations from a re-analysis of the deposited data

Results flagged for a closer look

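Within the TAC + EMPA group, 1 of the 4 libraries lay far from the others for 11 of 81 values examined, by the gap to its nearest neighbour as a share of the group's range. Chance alone would set apart about 1 in 20. None of the 10 lipid droplet and lipolysis genes and none of their 6 ratios was among them. TAC + EMPA replicate 4 was high for Acsl4 (share 0.971), Acot1 (0.985) and Acadvl (0.895), enzymes that activate, release and oxidise acyl chains, and for the summed hepatocyte (0.996) and skeletal muscle markers (0.977). It was low for Lipa (0.871), the lysosomal acid lipase, and for Agpat1 (0.899), an acyltransferase of triglyceride synthesis. TAC + EMPA replicate 1 was high for Abhd6 (0.927), a monoacylglycerol lipase, and low for the summed brown fat markers (0.875), nearly all of which is Cox8b. TAC + EMPA replicate 3 was high for Gpat3 (0.898) and for the coactivator Ppargc1a (0.849). The part of the skeletal muscle and hepatocyte transcripts in these values was not tested.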

How the results depend on the processing

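Of 180 refits of the 10 genes, 160 kept the direction and stayed uncalled as in the main fit, 14 passed the threshold and 6 reversed. Those that passed came from leaving out TAC replicate 3, alone or with TAC + EMPA replicate 4. The settings of the filter and the variance prior cannot change a log2 difference, so the direction was fixed in those refits. With TAC replicate 3 as the only TAC library, Lipe was at 0.23, Angptl4 at 0.24, Dgat1 at 0.18 and Plin2 at -0.14 on the log2 scale; without TAC replicate 2, Angptl4 and Dgat1 also turned positive. When 1 library was left out, genes called ranged from 0 to 3681 higher and 0 to 2932 lower. Of the 10 genes, 0 to 5 were called higher and 0 to 2 lower, and their median log2 difference ranged from 0.21 to 0.43. Those without overlap numbered 5 higher and 1 to 2 lower, counts that leaving out a library can raise but cannot reduce. The same refits gave -0.285 to 0.0193 for Dgat1 and -0.587 to 0.0884 for Angptl4. Both maxima of calls came from leaving out TAC replicate 3. With TAC replicate 3 as the only TAC library, 2 genes were called higher and 17 lower, and the median was 0.23. With both TAC replicate 3 and TAC + EMPA replicate 4 left out, 3721 genes were called higher and 2956 lower, of the 10 genes 5 higher and 2 lower, 2 were lower without overlap, and the median was 0.41. With no filter on low values 2 genes were called lower, and with the transcript length correction 0 of the 10 genes were lower without overlap. That correction gave log2 differences of 0.74 for Plin4, 0.38 for Lpl, 0.44 for Pnpla2, 0.47 for Plin5 and 0.61 for Dgat2. All of these genes stayed higher without overlap. The cause of the changes between settings was not tested.

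For TAC and TAC + EMPA libraries with the same replicate number, deviations from the group means had correlations of 0.10, 0.08 and -0.03. Pairs with different numbers had -0.17 to 0.06, so replicates 1 and 2 gave the highest values. TAC replicate 1 and TAC + EMPA replicate 1 were also the deepest libraries. Whether libraries of the same number shared a batch was not tested. With the replicate block, 0 of the 10 genes were called, as without it, and Plin4 had a log2 difference of 0.88 (limma adjusted p = 0.194). In that fit TAC + EMPA replicate 4 has no partner. Total fragment numbers are unknown, and 3 and 4 libraries limit the precision.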

Other observations

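Genes that bring fatty acids into the cell and oxidise them were counted in the pathway total above, and values of some of them follow. Of 11 tested genes of uptake, binding and activation, unadjusted p-values under 0.05 were found for 1 higher and 3 lower genes (19.0% and 14.7% of all genes), and none passed the adjusted threshold in limma. Cd36, the main fatty acid transporter of heart, was at 698, 711 and 827 FPKM in TAC and 843 to 890 in TAC + EMPA, without overlap. Acsl1, which activates fatty acids for oxidation and storage, was at 93.1 and 72.5 in TAC replicates 1 and 2, 299 in TAC replicate 3 and 266 to 323 in TAC + EMPA. Fabp5, a fatty acid binding protein of endothelium and macrophages, was at 59.0, 70.9 and 37.7 in TAC and 23.2 to 27.7 in TAC + EMPA, the lowest levels of the 7 libraries (log2 difference -1.09 with a standard error of 0.21, limma adjusted p = 0.115). Fabp4 was at 1769, 2158 and 989 in TAC and 733 to 946 in TAC + EMPA. The summed endothelial markers were also highest in TAC replicates 1 and 2, and their part in these values was not tested.

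Of 11 other PPAR targets of muscle, unadjusted p-values under 0.05 were found for 5 higher genes and 1 lower gene (19.0% and 14.7% of all genes). Acadm, the medium-chain acyl-CoA dehydrogenase, was at 279, 227 and 1118 FPKM in TAC and 1098 to 1223 in TAC + EMPA, and Cpt1b, which brings acyl chains into mitochondria, was at 205, 162 and 415 and at 397 to 473. For both, TAC replicate 3 lay inside the range of the TAC + EMPA libraries. Acadvl, the very long-chain dehydrogenase, ran the other way, at 745, 749 and 450 in TAC and 406 to 477 in TAC + EMPA. Ces1d, a carboxylesterase with triglyceride hydrolase activity, was at 59.6 in TAC + EMPA replicate 4 and 26.0 to 41.8 in the other libraries.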
